A study of Rattus norvegicus with 4 samples.

Results

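The genes described here are Ubash3b, Ell2, Ptpro, Sap18, Pkp2, Tiparp and Ankrd55, 7 of the 28370 gene symbols listed for single nuclei of the rat nucleus accumbens. They were chosen by measured values: earlier fits of these same libraries gave them higher UMI sums after cocaine in medium spiny neurons (MSN), which send the output of the striatum. Their levels with cocaine in these neurons are therefore a description, given without a test. The question was whether each rise lay in the nuclei that hold transcripts of Nr4a3, an activity-induced nuclear receptor, or was spread over the population. Sprague-Dawley rats aged 90 to 120 days received cocaine (20 mg/kg) or saline intraperitoneally on 7 consecutive days, and the punches date from 1 hour after the final dose. Punches of 2 mm centred on the accumbens core from 4 rats formed each library, and there was 1 library of females and 1 of males for each treatment. A library is thus 1 pool of rats of 1 sex, and the spread between the 2 libraries of a treatment holds the difference between the sexes. No rat can be told apart within a pool, and no group without injections was part of the series.

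The 7 genes belong to different pathways. ELL2 is an elongation factor that joins the super elongation complex and helps RNA polymerase II move through genes. SAP18 is a small subunit of the Sin3 histone deacetylase complex and of the ASAP splicing complex. TIPARP is a mono-ADP-ribosyltransferase that is induced by, and represses, the aryl hydrocarbon receptor. PTPRO is a receptor-type tyrosine phosphatase with roles in axon guidance and synapse formation, and UBASH3B (also called STS-1) is a phosphatase that dampens signalling of tyrosine kinases and binds CBL ubiquitin ligases. PKP2 is plakophilin 2, a desmosome plaque protein best known from heart muscle, and ANKRD55 is an ankyrin repeat protein associated with the intraflagellar transport machinery of cilia. MSN fall mainly into neurons with the dopamine receptor D1 and neurons with the receptor D2. In these neurons dopamine and cAMP signalling through CREB drives a set of activity-regulated genes that includes the Fos, Egr and Nr4a families.

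The libraries held 31484217 to 40737786 unique molecular identifiers (UMIs, each standing for 1 captured transcript) in 6213 to 7265 barcodes, and 24843 nuclei were kept. Any pair of libraries shared 10 to 18 barcodes, at most 0.282% of the smaller list. Levels below are UMIs of a gene per 1000000 UMIs of the class in a library (CPM). D1-MSN-like nuclei numbered 4951 and D2-MSN-like nuclei 3828. In D1-MSN-like nuclei the summed level of 5 D1 markers was 762 to 903 CPM and that of 5 D2 markers 18.9 to 52.8 CPM, and in D2-MSN-like nuclei the order was turned, with 1374 to 1704 CPM of D2 markers and 14.1 to 40.7 CPM of D1 markers. The saline female library was the deepest in these nuclei, with a median of 9870 UMIs per D1-MSN-like nucleus against 6662 to 7833 in the others. Each gene had 1 row except Sap18, which is listed under 2 identifiers (ENSRNOG00000064694 with 17356 UMIs and ENSRNOG00000020771 with 59). Values of Sap18 below are those of the first row. RefSeq lists a Sap18 pseudogene, and reads of near-identical copies may be split, so the level of Sap18 is uncertain.

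Sequences around the gene starts are shown for Ell2 and Tiparp, which were higher in nuclei with Nr4a3, and for Ankrd55, which was not. RefSeq (build GRCr8) had a promoter window, 250 bases before to 50 after the gene's start, for 5 of the 7 genes (Ell2, Tiparp, Ptpro, Ubash3b and Ankrd55). Both strands were searched for the cAMP response element (CRE) bound by CREB (TGACGTCA), its short form (TGACG, also found within the full site), the AP-1 site bound by Fos and Jun proteins (TGANTCA), the NR4A response element NBRE (AAAGGTCA), the core of the xenobiotic response element (GCGTG) and, by name, the serum response element. The Ell2 window (chr2:6921602-6921901, + strand) held 1 full CRE, which begins 233 bases before the start, and 5 short forms, 2 of them within the full site. A full CRE was found in 1.83% and a short form in 21.2% of the 33465 windows of the table. In the 3 lines capitals mark the sites on either strand, other than the xenobiotic core.
Ell2: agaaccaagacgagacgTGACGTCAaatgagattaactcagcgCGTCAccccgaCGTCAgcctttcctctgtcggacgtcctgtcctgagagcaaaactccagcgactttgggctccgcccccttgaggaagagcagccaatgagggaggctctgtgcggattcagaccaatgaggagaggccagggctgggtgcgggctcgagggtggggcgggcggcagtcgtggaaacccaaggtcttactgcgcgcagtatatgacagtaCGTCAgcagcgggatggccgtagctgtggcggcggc
Tiparp: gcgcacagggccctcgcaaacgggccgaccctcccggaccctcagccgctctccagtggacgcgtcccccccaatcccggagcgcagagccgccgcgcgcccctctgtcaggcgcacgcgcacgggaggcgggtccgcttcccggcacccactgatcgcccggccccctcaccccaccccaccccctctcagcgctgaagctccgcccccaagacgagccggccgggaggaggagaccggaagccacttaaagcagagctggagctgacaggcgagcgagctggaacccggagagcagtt
Ankrd55: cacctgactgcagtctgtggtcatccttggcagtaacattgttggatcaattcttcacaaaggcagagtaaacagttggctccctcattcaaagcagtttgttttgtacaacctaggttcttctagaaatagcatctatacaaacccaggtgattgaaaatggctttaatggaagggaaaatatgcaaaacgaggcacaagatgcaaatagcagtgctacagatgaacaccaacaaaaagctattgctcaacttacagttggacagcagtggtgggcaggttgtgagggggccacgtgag
The windows of Tiparp (chr2:152063519-152063818, + strand) and Ankrd55 (chr2:45647536-45647835, + strand) held none of the sites marked in capitals. Those of Tiparp and Ptpro each held 1 core of the xenobiotic response element, which 29.7% of windows held, and that of Ubash3b 1 short form of the CRE. No AP-1, NBRE or serum response element match lay in any of the 5 windows, against 7.33%, 1.43% and 1.64% of all windows. These letters describe the windows and do not show binding.

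In D1-MSN-like nuclei all 7 genes were higher in both cocaine libraries than in both saline libraries. The share of all genes that separated in this way was not taken, here or below, so nothing is read from such counts. Ell2, the elongation factor, stood at 116 CPM (female) and 103 CPM (male) with saline and at 185 CPM (female) and 154 CPM (male) with cocaine. Pairs of values below keep this order, females first. Tiparp, the ADP-ribosyltransferase, had the largest fitted difference of the 7, at a log2 fold change of 1.03 (SE 0.14, edgeR), from 11.8 and 6.95 CPM with saline to 23.4 and 15.3 CPM with cocaine. The female libraries were the higher ones within each treatment for Ell2 and Tiparp. Sap18 was at 83.9 and 125 CPM with saline and at 148 and 158 CPM with cocaine. The saline female library was the low one for Sap18, and leaving it out took the log2 fold change from 0.55 to 0.27.

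Among the membrane and signalling genes, Ptpro went from 82.4 and 84.9 CPM to 133 and 123 CPM, with the smallest spread between saline libraries of the 7. Ubash3b went from 52.5 and 38.3 CPM to 89.1 and 72.0 CPM, a log2 fold change of 0.81 (SE 0.08). Pkp2, the plakophilin, stood at 32.6 and 19.5 CPM with saline and 50.5 and 35.2 CPM with cocaine. Saline females and cocaine males lay close together for Pkp2, so the difference between the sexes was nearly as large as that between the treatments. Ankrd55 stood at 55.5 and 58.6 CPM with saline and 88.7 and 71.4 CPM with cocaine, and most of its difference came from the cocaine female library. By edgeR's adjusted p, 5 of the 7 passed in this class (Ell2, Tiparp, Ptpro, Ubash3b and Pkp2), where 0.151% of the 13280 genes tested passed in the higher direction. Since this contrast chose the genes, nothing is read from that count. All 5 calls were lost in edgeR without the sex term, where no gene of this class passed. With DESeq2, Tiparp, Ptpro and Pkp2 did not pass.

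In D2-MSN-like nuclei 4 of the 7 were higher in both cocaine libraries than in both saline libraries. Ell2 went from 113 and 90.4 CPM to 153 and 156 CPM, and Sap18 from 85.0 and 112 CPM to 140 and 159 CPM. Ptpro stood at 26.2 and 29.2 CPM with saline, and at 66.2 CPM in the cocaine female but 39.0 CPM in the cocaine male library. Tiparp went from 11.4 and 14.0 CPM to 17.8 and 18.9 CPM. The other 3 overlapped between the treatments. Pkp2 was at 34.4 and 15.5 CPM with saline and 40.4 and 27.0 CPM with cocaine. Ubash3b was at 36.8 and 38.6 CPM with saline and at 26.4 and 40.3 CPM with cocaine, and Ankrd55 was at 27.6 to 31.4 CPM in all 4 libraries. The levels of Ubash3b and Ankrd55 thus did not separate by treatment in these D2-MSN-like nuclei, against the label under which they were grouped. Ell2 and Sap18 passed edgeR's adjusted p there, where 0.0628% of 12734 genes passed in the higher direction, and nothing is read from that count either, since cocaine against saline in spiny neurons chose the genes. Both calls were lost with DESeq2 (adjusted p = 0.45 for each) and without the sex term (edgeR adjusted p of 0.51 for Ell2 and 0.82 for Sap18), and without the cocaine male library (0.056 and 0.27).

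**Figure D1:**
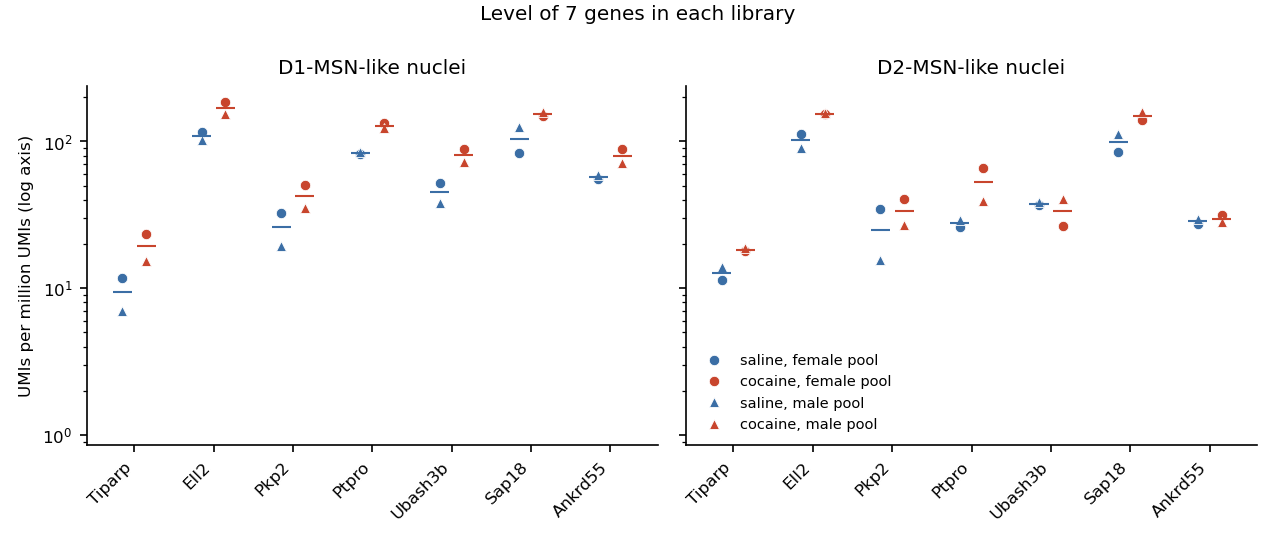
Level of the 7 genes in D1-MSN-like (left) and D2-MSN-like nuclei (right), in CPM on a log axis. Each point is 1 library (circle, female pool; triangle, male pool; blue, saline; red, cocaine) and each bar the mean of 2 libraries. All 7 red pairs lie above the blue pairs on the left, and on the right the pairs of Ubash3b, Ankrd55 and Pkp2 overlap.

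The D1-MSN-like class consisted of cluster 2, led by Reln and Ebf1, and cluster 5, led by Htr4. The saline female library held fewer nuclei of cluster 5 (234, against 445 to 601 in the others), so the values were also taken within each cluster. In cluster 2 the log2 fold changes with cocaine ran from 0.56 (Sap18) to 1.25 (Tiparp). In cluster 5 Ankrd55 stood at 69.2 and 53.3 CPM with saline and 74.5 and 52.4 CPM with cocaine, against 50.6 and 63.0 CPM with saline and 98.7 and 81.6 CPM with cocaine in cluster 2. Tiparp in cluster 5 was at 11.1 and 9.76 CPM in the saline and cocaine female libraries, so there the female pair did not rise. The log2 fold changes of Sap18 and Pkp2 were 0.56 and 0.64 in cluster 2 and 0.53 and 1.02 in cluster 5, although in cluster 2 the Pkp2 level of the saline female library (37.2 CPM) lay above that of the cocaine male library (34.7 CPM). The differences between the clusters were not tested. In eccentric MSN-like nuclei, another spiny population, 6 of the 7 genes lay higher in both cocaine libraries than in both saline libraries. Tiparp was the exception, since the saline female library (11.2 CPM) lay above the cocaine male library (9.71 CPM). Pkp2 had the largest log2 fold change there (0.93, SE 0.18), and Ell2, Pkp2 and Ubash3b passed edgeR's adjusted p in a class where 0.399% of genes passed in the higher direction and all genes shared 1 trend of dispersion. No gene of this class passed with DESeq2, in edgeR without the sex term or in edgeR without the saline female library (51, 646 and 676 genes had an unadjusted p under 0.05), and the 3 calls were lost there, with adjusted p from 0.38 to 1.0. Without the cocaine female library and with doublets kept none of the 3 passed either (lowest edgeR adjusted p of 0.86 and 0.11), and without either male library Pkp2 alone did.

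No class named as MSN-like had the highest level of any of the 7 genes. Cluster 13, the highest for Sap18, had high MSN markers but met no name. Ubash3b and Ankrd55 were highest in microglia-like nuclei, at 375 ± 105 CPM and 557 ± 191 CPM (SD, n = 4 libraries), against 63.0 ± 22.2 CPM and 68.6 ± 15.1 CPM in D1-MSN-like nuclei. The library ranges of these classes did not meet for either gene. The summed level of 6 microglia markers in D1-MSN-like nuclei was 4.31 to 8.42 CPM, well under the level of either gene. Ell2 was highest in oligodendrocyte-like nuclei (451 ± 30.4 CPM), followed by cluster 16, a small cluster led by Enpp6 and Bcas1, and by astrocyte-like nuclei. Ptpro was highest in cluster 16 (1238 ± 189 CPM) and in cluster 13 (841 ± 137 CPM), which is led by Stac, Adamtsl1 and Drd3, and nearly at 0 in astrocyte-like nuclei (0.855 ± 0.840 CPM). Tiparp was highest in astrocyte-like nuclei (85.7 ± 15.2 CPM) and Pkp2 in Sst interneuron-like nuclei (111 ± 29.6 CPM). The summed level of 6 astrocyte markers was 542 to 642 CPM in D1-MSN-like and 12693 to 14347 CPM in astrocyte-like nuclei. Carry-over of Tiparp from astrocytes into spiny nuclei was not tested. D1-MSN-like nuclei ranked second for Pkp2 (34.4 ± 12.7 CPM), where they overlapped the glutamatergic-like, D2-MSN-like and eccentric MSN-like classes. Pkp2 had 0 UMIs in microglia-like nuclei and in cluster 16. Sap18 ran from 68.1 ± 22.0 CPM in microglia-like nuclei to 159 ± 56.8 CPM in cluster 13, the smallest ratio between the highest and the lowest class of the 7, and the ranges of the 3 MSN-like classes overlapped.

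**Figure D2:**
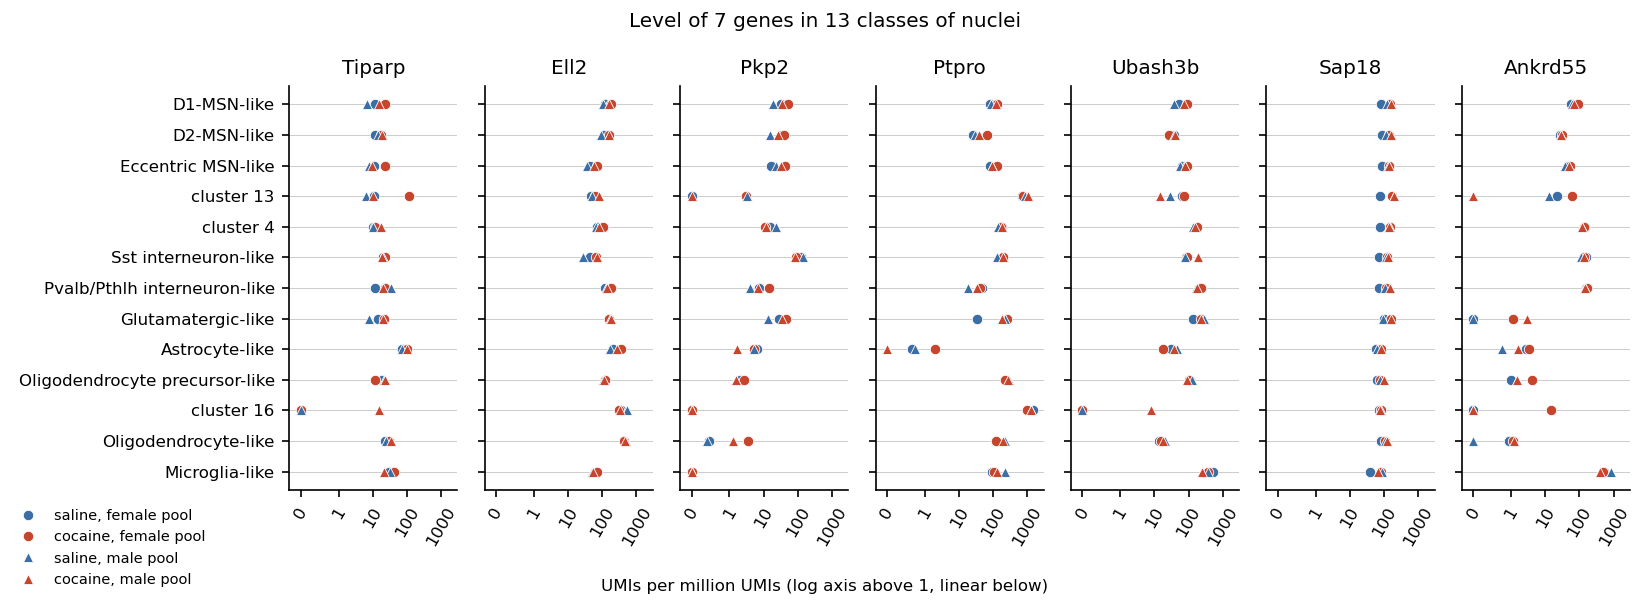
Level of the 7 genes in 13 classes of nuclei, in CPM (log axis above 1 and linear below). Each point is 1 library, with the symbols of the plot of levels by library. Ubash3b and Ankrd55 peak in microglia-like nuclei, Pkp2 in Sst interneuron-like nuclei, and Sap18 is close to level across classes.

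Genes with the most similar profile over the 52 sums of class and library (13 classes in 4 libraries) differed for each of the 7. Ubash3b was most like Nav3 (Pearson r = 0.87), Mboat7 and Pck2, and Ankrd55 most like St8sia4 (0.86), Slc29a1 and Phkg2. Pkp2 was most like Dnah9 (0.88), Fam189a1 and Zfp385b, and Ptpro most like Apba1 (0.82), Tulp4 and Map7. Ell2 was most like Hs3st1 (0.80), Plekhg1 and Insig1. Sap18 and Tiparp had no gene as close, the nearest being Zcchc9 (0.73), Psip1 and Gtpbp6 for Sap18 and Sts (0.73), Extl3 and Ccdc15 for Tiparp. None of the 7 was among the 3 nearest genes of another. These correlations describe classes that share libraries and depth, over 11856 genes.

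A minority of spiny nuclei held an Nr4a3 UMI at this depth. In D1-MSN-like nuclei the shares were 7.84% (95% Wilson interval 6.22% to 9.83%) and 4.19% (3.25% to 5.39%) with saline and 8.28% (6.94% to 9.86%) and 7.35% (6.08% to 8.86%) with cocaine. In D2-MSN-like nuclei they were 9.28% (7.41% to 11.6%) and 5.89% (4.58% to 7.56%) with saline and 8.22% (6.67% to 10.1%) and 7.75% (6.32% to 9.48%) with cocaine. These intervals cover counting error only. In the females this share differed little between treatments, but the saline female library was also the deepest. Thinned to 3000 UMIs per nucleus, the shares in the females were 4.18% (3.02% to 5.76%) with saline and 5.87% (4.74% to 7.26%) with cocaine in D1-MSN-like nuclei, and 4.41% (3.16% to 6.13%) and 5.65% (4.37% to 7.26%) in D2-MSN-like nuclei, with intervals that overlap. In the female libraries Nr4a3 itself went from 24.6 to 91.7 CPM in the D1-MSN-like class and from 30.4 to 69.7 CPM in the D2-MSN-like class. Nuclei with 10 or more Nr4a3 UMIs made up 0.351% (0.119% to 1.03%) and 0.221% (0.0751% to 0.647%) of D1-MSN-like nuclei with saline and 2.47% (1.77% to 3.43%) and 1.25% (0.782% to 1.99%) with cocaine. In the cocaine libraries they held 77.4% and 69.6% of all Nr4a3 UMIs of the class. Oligodendrocyte-like nuclei, which should lack the gene, held an Nr4a3 UMI in 0.0505% to 0.314% of nuclei at a median of 1513 to 2001 UMIs, against a median of 6662 to 9870 UMIs in D1-MSN-like nuclei. A nucleus without an Nr4a3 UMI may still hold the transcript below this depth.

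Nuclei with an Nr4a3 UMI had higher levels of 5 of the 7 genes than nuclei without one in the same class. Values in this and the next paragraph give the females first (saline, then cocaine) and then the males. In D1-MSN-like nuclei Tiparp was at 50.6, 169, 30.5 and 91.0 CPM with an Nr4a3 UMI, and at 8.18, 8.66, 5.81 and 8.71 CPM without. The log2 difference was 3.58 (SE 0.26, edgeR adjusted p = 7.4e-08). Ell2 was at 249, 1064, 232 and 687 CPM with and at 103, 95.8, 96.7 and 108 CPM without, a log2 difference of 2.43 (SE 0.28, edgeR adjusted p = 1.3e-05). Both genes were higher with an Nr4a3 UMI in 4 of 4 libraries, and the levels with and without did not overlap. Ubash3b was at 129, 275, 99.6 and 216 CPM with and 45.3, 70.2, 35.4 and 59.4 CPM without (log2 difference 1.93, SE 0.12, edgeR adjusted p = 2.7e-08). Pkp2 was at 40.0, 206, 42.7 and 104 CPM with and at 32.0, 34.7, 18.3 and 29.2 CPM without (1.89, SE 0.26, edgeR adjusted p = 7.1e-05). The ratio between both kinds of nuclei lay between 2.82 and 3.92 for Ubash3b, while that of Pkp2 ran from 1.25 in the saline to 5.93 in the cocaine females. Nuclei with an Nr4a3 UMI were also deeper, with medians of 7279 to 11320 UMIs against 6630 to 9794 in D1-MSN-like nuclei without one. With each nucleus thinned to 3000 UMIs, the same 5 genes passed in both MSN classes.

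Among the 5 genes that passed, Ptpro alone was not higher with an Nr4a3 UMI in every D1-MSN-like library. It stood at 98.6, 444, 56.9 and 308 CPM with an Nr4a3 UMI and at 80.9, 101, 86.3 and 107 CPM without, so it was higher in both cocaine libraries and lower in the saline male library (log2 difference over all libraries 1.28, SE 0.28, edgeR adjusted p = 0.0051). Sap18 and Ankrd55 did not pass. The log2 difference was 0.03 (SE 0.11, edgeR adjusted p = 0.88) for Sap18 and -0.35 (SE 0.15, edgeR adjusted p = 0.13) for Ankrd55. Sap18 was at 73.3, 129, 108 and 161 CPM with an Nr4a3 UMI and 84.9, 150, 126 and 157 CPM without, higher in 1 of 4 libraries. Ankrd55 was lower with an Nr4a3 UMI in 3 of 4 libraries. When nuclei were divided by a UMI of Fos, Fosb, Junb, Nr4a1, Egr1 or Egr4 instead, Ankrd55 passed as the lower one, by a log2 difference of 0.29 in D1-MSN-like (edgeR adjusted p = 0.0056) and of 0.37 in D2-MSN-like nuclei (edgeR adjusted p = 0.035). Of all 11851 genes tested 9.59% were higher in nuclei with an Nr4a3 UMI, against 5 of these 7. The cocaine libraries, whose higher levels chose the genes, are part of this fit, so the count is a description. The same holds for the D2-MSN-like count below and for the counts in the cocaine libraries alone.

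D2-MSN-like nuclei gave Tiparp, Ell2, Pkp2, Ubash3b and Ptpro again, against 9.1% of 11421 genes. The log2 differences were 3.34 for Tiparp (SE 0.24), 2.34 for Ell2 (SE 0.23), 2.01 for Pkp2 (SE 0.29), 1.95 for Ubash3b (SE 0.15) and 1.31 for Ptpro (SE 0.18), with edgeR adjusted p between 2.1e-09 and 3.0e-05. All 5 were higher with an Nr4a3 UMI in 4 of 4 libraries. Ubash3b, whose level in the whole D2-MSN-like class overlapped between treatments, still had 2.54 to 4.22 times the level in nuclei with an Nr4a3 UMI. Sap18 (0.02, SE 0.10) and Ankrd55 (-0.40, SE 0.21) did not pass, with edgeR adjusted p of 0.96 and 0.25. In the nuclei that carried Nr4a3, activity-regulated genes were higher as a group: 24 of 27 tested passed in the D1-MSN-like class and 21 of 25 in the D2-MSN-like class, with median log2 differences of 2.50 and 2.91 against -0.04 and -0.03 over all genes. The genes with the smallest adjusted p were Junb (3.05), Nr4a1 (4.63), Gpr63 (2.29), Peli1 (2.35) and Sik2 (2.34) in D1-MSN-like nuclei and Nts (4.66), Junb (2.93), Nr4a1 (4.55), Rheb (2.66) and Peli1 (2.26) in D2-MSN-like nuclei. Ranked by log2 difference, Tiparp was number 12 among D1-MSN-like genes and Ell2 number 33, and in D2-MSN-like nuclei they were 14 and 39.

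**Figure D3:**
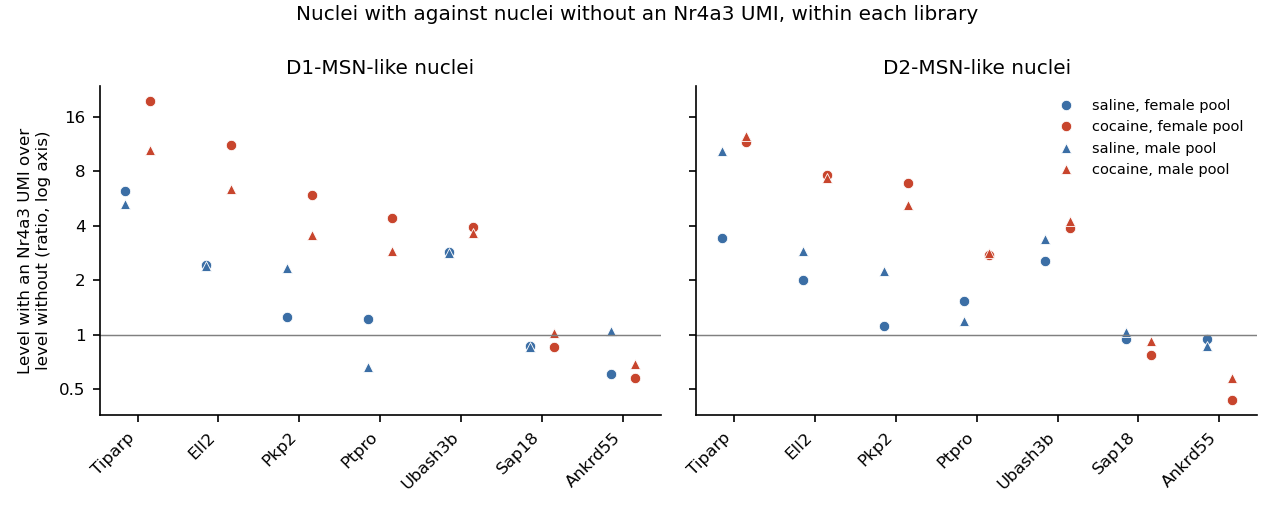
Ratio of the level in nuclei with an Nr4a3 UMI to the level in nuclei without one, for each gene and library on a log axis. Symbols are those of the plot of levels by library, and the grey line marks a ratio of 1. Tiparp, Ell2, Pkp2 and Ubash3b lie above 1 in every library of both classes, while Sap18 and Ankrd55 scatter around or below 1.

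The saline libraries alone, which hold no cocaine contrast, were also fitted, a choice made after the data had been seen. In D1-MSN-like nuclei Tiparp (log2 difference 2.64, SE 0.31), Ubash3b (1.61, SE 0.17), Ell2 (1.37, SE 0.12) and Pkp2 (0.78, SE 0.25) were higher with an Nr4a3 UMI, with edgeR adjusted p of 5.3e-15, 6.5e-18, 1.3e-25 and 0.030, where 5.13% of genes were higher. All genes shared 1 trend of dispersion in this fit (an infinite prior), on which the very small values rest. Ptpro differed by 0.06 (SE 0.17, edgeR adjusted p = 0.92). In D2-MSN-like nuclei Tiparp (2.71), Ubash3b (1.62) and Ell2 (1.31) passed, with edgeR adjusted p up to 6.3e-09, where 3.97% of genes were higher. Pkp2 (0.54) and Ptpro (0.53) did not pass there, with edgeR adjusted p of 0.34 and 0.30. In the cocaine libraries alone the same 5 genes passed in both classes, where 10.9% of genes (D1-MSN-like) and 10% of genes (D2-MSN-like) were higher. The log2 difference of Ell2 was then 3.33 and that of Ptpro 2.09 in D1-MSN-like nuclei.

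The difference between nuclei with and without an Nr4a3 UMI was thus larger in the cocaine than in the saline libraries for several genes. In D1-MSN-like nuclei the cocaine effect exceeded that in nuclei without an Nr4a3 UMI by a log2 difference of 2.02 for Ptpro (SE 0.23), 1.95 for Ell2 (SE 0.20), 1.72 for Pkp2 (SE 0.30) and 1.49 for Tiparp (SE 0.34). For Ubash3b it was 0.54 (SE 0.19), for Sap18 0.24 (SE 0.20) and for Ankrd55 -0.21 (SE 0.29). In D2-MSN-like nuclei the values were 2.28 for Pkp2, 1.81 for Ell2, 1.15 for Ptpro, 1.08 for Tiparp and 0.61 for Ubash3b. By edgeR's adjusted p 4 of the 7 passed in D1-MSN-like nuclei (1.61% of all genes did in that direction) and 3 of the 7 in D2-MSN-like nuclei (Pkp2, Ell2 and Ptpro, against 1.6%). These values share the cocaine contrast by which the genes were chosen and are given as a description. D1-MSN-like nuclei with an Nr4a3 UMI held 9.21 and 6.68 of them on average with cocaine and 3.24 and 2.63 with saline. In D2-MSN-like nuclei they held 6.72 and 6.72 with cocaine and 3.3 and 2.70 with saline. The nuclei were not matched for this number, so it changes together with the treatment in these values. Thinned to 3000 UMIs per nucleus, Ell2 and Ptpro kept the call in D1-MSN-like nuclei and Ell2 in D2-MSN-like nuclei. Pkp2 lost it with a value of similar size and a larger error (1.56, SE 0.59, in D1-MSN-like and 2.52, SE 0.58, in D2-MSN-like nuclei), and Tiparp in D1-MSN-like nuclei stood at 1.05 (SE 0.69) and Ptpro in D2-MSN-like nuclei at 0.73 (SE 0.57).

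The difference with cocaine was divided between nuclei with and without an Nr4a3 UMI, since each UMI lies in one or the other. For Ell2 in D1-MSN-like nuclei the mean difference was 60.3 CPM, of which nuclei with an Nr4a3 UMI gave 60.5 CPM and the other nuclei -0.28 CPM (111% and 86.2% from nuclei with an Nr4a3 UMI in the female and the male pair). Ell2 in nuclei without an Nr4a3 UMI was at 100 ± 4.81 CPM with saline and 102 ± 8.60 CPM with cocaine (SD, n = 2). Tiparp followed Ell2, with 85.8% of its D1-MSN-like difference from nuclei with an Nr4a3 UMI (96.7% in the female and 70.5% in the male pair). The shares were 65.2% for Pkp2 (87.2% and 40.3% in the female and male pair) and 61.5% for Ptpro (64.2% and 57.9%). For Ubash3b it was 38.5% (39.2% and 37.8%), and its level in nuclei without an Nr4a3 UMI still stood at 64.8 ± 7.62 CPM with cocaine and 40.4 ± 7.06 CPM with saline, with no overlap. Sap18 drew 13.9% of its difference from nuclei with an Nr4a3 UMI (8.74% and 24.3% in the female and male pair) and Ankrd55 6.92% (5.86% and 9.70%). These nuclei held 3.98% to 8.17% of all Sap18 UMIs of the class and 4.81% to 5.68% of its Ankrd55 UMIs. The genes thus ranged from Ell2, whose mean difference lay in the nuclei with an Nr4a3 UMI, to Sap18 and Ankrd55, whose difference lay mostly in the others.

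In D2-MSN-like nuclei 94.5% of the rise of Ell2 (52.5 CPM) and 101% of that of Tiparp (5.64 CPM) came from nuclei with an Nr4a3 UMI. Tiparp in the other nuclei was at 8.94 ± 0.380 CPM with saline and 8.99 ± 0.244 CPM with cocaine (SD, n = 2). Pkp2 stood at 35.0 ± 4.17 CPM with saline against 139 ± 53.4 CPM with cocaine in nuclei with an Nr4a3 UMI, and at 24.2 ± 13.9 against 22.6 ± 4.44 CPM in those without. Ptpro drew 35.6% from them (28.1% in the female and 66.0% in the male pair), since in the cocaine female library it also stood at 56.6 CPM in nuclei without an Nr4a3 UMI, against 24.8 to 33.4 CPM in the other libraries. Sap18 drew 8.32% (4.47% and 12.9%). The mean difference was below 0 for Ubash3b and 1.32 CPM for Ankrd55, of opposite sign in the female (3.77 CPM) and the male pair (-1.13 CPM), so neither was divided.

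**Figure D4:**
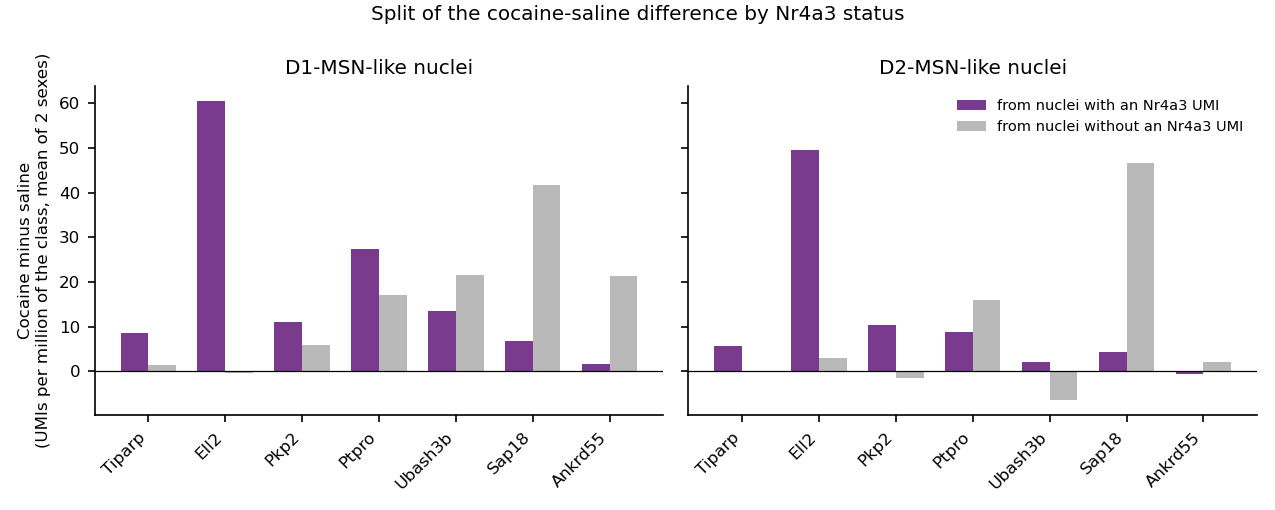
Cocaine minus saline difference of each gene, in CPM (mean of the female and the male pair), divided into the part from nuclei with (purple) and without an Nr4a3 UMI (grey). For Ell2 in D1-MSN-like nuclei the purple bar is at 60.5 CPM and the grey one at -0.28 CPM, while the difference of Sap18 and Ankrd55 is mostly grey.

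The share of nuclei with at least 1 UMI was also taken in nuclei thinned to 3000 UMIs. In D1-MSN-like nuclei this share was higher in both cocaine than in both saline libraries for 6 of the 7 genes, and Ell2 was the exception. Ell2 was found in 24.0% ± 2.02 of thinned D1-MSN-like nuclei with saline and 25.5% ± 1.32 with cocaine (SD, n = 2), so that the groups overlapped. Unthinned, the mean difference in share was -3.27 points. Nuclei with 3 or more thinned Ell2 UMIs were 1.31% (95% Wilson interval 0.735% to 2.34%) and 0.898% (0.514% to 1.56%) with saline and 4.53% (3.55% to 5.78%) and 2.76% (2.00% to 3.80%) with cocaine, with no overlap of the 2 groups. Sap18 was found in 28.6% ± 6.88 of thinned nuclei with saline and in 37.6% ± 1.80 with cocaine (58.8% and 67.1% unthinned), and Ankrd55 in 15.2% ± 0.197 and 20.9% ± 4.45 (33.3% and 38.2% unthinned). Tiparp was found in 2.39% and 1.72% of thinned nuclei with saline and 4.61% and 4.38% with cocaine (6.59% and 8.77% unthinned, means of 2 libraries). In thinned nuclei without an Nr4a3 UMI it was found in 1.56% and 1.64% with saline and 2.76% and 3.07% with cocaine. Unthinned, the share in nuclei without an Nr4a3 UMI was 5.55% ± 2.20 with saline and 6.15% ± 0.61 with cocaine (SD, n = 2). Pkp2 was found in 6.69% and 4.71% with saline and 10.3% and 8.37% with cocaine (15.7% and 18.0% unthinned). By the thinned shares Tiparp and Pkp2 were thus more widely found with cocaine in D1-MSN-like nuclei. Much of their difference in CPM still lay in nuclei with an Nr4a3 UMI. In thinned D2-MSN-like nuclei Pkp2 overlapped (8.02% and 3.34% with saline, 8.67% and 6.54% with cocaine). Tiparp there was found in 3.21% and 3.13% with saline and 4.03% and 4.52% with cocaine. Without an Nr4a3 UMI its groups overlapped (2.655% and 2.33% with saline, 2.09% and 2.90% with cocaine). Without thinning, 0% to 0.209% of oligodendrocyte-like nuclei had an Ankrd55 UMI, against 31.5% to 43.2% of D1-MSN-like nuclei. Every class held Ell2 at 50.7 CPM or more on average, so no class served as a background for it. Thinning left out 18 to 57 shallower D1-MSN-like nuclei per library.

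Within the nuclei that held Nr4a3, several of the genes followed the number of Nr4a3 UMIs. With 0, 1, 2 to 9 and 10 or more Nr4a3 UMIs, Ell2 in the pooled cocaine D1-MSN-like nuclei was at 102, 300.2, 736 and 1899 CPM, and in the saline nuclei at 99.7, 164, 290 and 392 CPM. The last step holds 51 cocaine nuclei but only 6 saline nuclei. Ptpro in cocaine nuclei went through 104, 160, 326 and 757 CPM, while in saline nuclei it stayed between 51.5 and 107 CPM. Pkp2 reached 299 CPM (from 32.2 CPM) and Tiparp 301 CPM (from 8.68 CPM) in cocaine nuclei with 10 or more Nr4a3 UMIs. In saline D1-MSN-like nuclei Pkp2 went through 24.4, 22.9, 46 and 135.5 CPM and Tiparp through 6.86, 28.6, 36.8 and 211 CPM. The last of these saline values rest on 9 UMIs of Pkp2 and 14 of Tiparp. Ubash3b levelled off in cocaine D1-MSN-like nuclei, at 300.4 CPM with 2 to 9 and 282 CPM with 10 or more Nr4a3 UMIs. Ankrd55 went down through the same steps, from 83.4 to 61.7, 55.2 and 35.2 CPM, the last from 17 UMIs. In the step of 2 to 9 Nr4a3 UMIs Ell2 was at 736 CPM in cocaine and 290 CPM in saline D1-MSN-like nuclei, and Ubash3b at 300.4 and 150 CPM. In D2-MSN-like nuclei Ubash3b was at 118 CPM with cocaine and 117 CPM with saline in that step. Over the steps Ubash3b climbed through 25.85, 51.9, 118 and 170 CPM in cocaine D2-MSN-like nuclei. Nuclei within a step need not hold equal numbers of Nr4a3 UMIs: D1-MSN-like nuclei with an Nr4a3 UMI held 9.21 and 6.68 of them on average with cocaine and 3.24 and 2.63 with saline. These pooled values carry no spread between libraries. The median depth per step ran from 7199 to 8926 UMIs in cocaine and from 8239 to 9932 UMIs in saline D1-MSN-like nuclei.

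**Figure D5:**
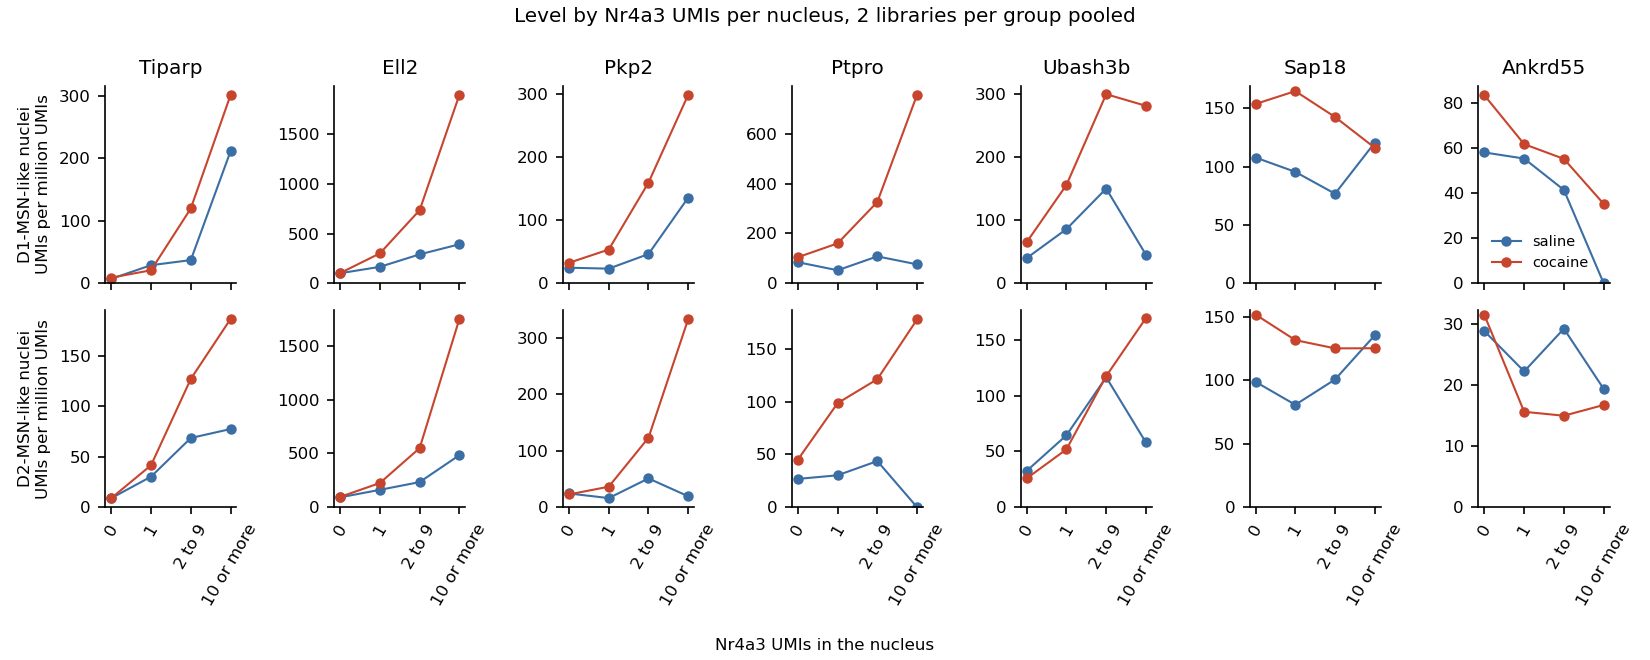
Level of the 7 genes (CPM, axis from 0 in each panel) in D1-MSN-like (top) and D2-MSN-like nuclei (bottom) by the number of Nr4a3 UMIs in the nucleus, with the 2 libraries of each treatment pooled (blue, saline; red, cocaine). Ell2, Tiparp, Pkp2 and Ptpro climb with Nr4a3 in cocaine nuclei. Ell2 and Tiparp also climb in saline nuclei of both classes. Ubash3b climbs in cocaine D2-MSN-like nuclei and levels off in cocaine D1-MSN-like nuclei. The saline points at 10 or more rest on 6 nuclei in each class.

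Outside spiny neurons the 7 genes gave 47 tests in 9 classes, 7 of them named and 2 not (clusters 4 and 16). Cluster 13 was left out of these because its MSN markers were high although it met no name. The cocaine effect was above 0 in 27 of them and passed edgeR's adjusted p in 1, where 0.224% of all tests in these classes passed in the higher direction. That gene was Ell2 in astrocyte-like nuclei, at 202 and 171 CPM with saline and 341 and 271 CPM with cocaine, with no overlap (log2 fold change 0.68, SE 0.12, edgeR adjusted p = 5.3e-06, in a class where 0.561% of genes passed higher). All genes of this class shared 1 trend of dispersion. The call was lost with DESeq2 (adjusted p = 1), without the sex covariate (edgeR adjusted p = 0.33) and without either cocaine library or the saline male library (edgeR adjusted p of 0.46, 0.053 and 0.21). Tiparp in the same nuclei was at 73.4 and 71.7 CPM with saline and 99.2 and 98.6 CPM with cocaine, and did not pass (edgeR adjusted p = 0.25).

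The mean of Sap18 was higher with cocaine in 13 of 13 classes, which include the spiny classes whose cocaine contrast chose the gene. The share of all genes with such counts was not taken, so nothing is read from the counts here. Sap18 was higher in 13 of 13 female pairs and in 10 of 13 male pairs, and the libraries did not overlap in 8 classes. The classes come from the same 4 libraries and are not independent. Ell2 also did not overlap in 8 classes, and was higher in 12 of 13 female and 11 of 13 male pairs. None of the 9 classes that are not spiny neurons passed the test for Sap18 (log2 fold changes from -0.02 to 0.67, lowest edgeR adjusted p = 0.33). The saline female library had the lowest Sap18 level of the 4 libraries in 12 of 13 classes. The counts above thus move with 1 library. With that library left out, the log2 fold change of Sap18 was above 0 in 9 of 13 classes (12 of 13 with all libraries), its median over the classes went from 0.43 to 0.12, and in D2-MSN-like nuclei, the class in which Sap18 passed, it went from 0.56 to 0.37 and no longer passed (edgeR adjusted p = 0.074). In glutamatergic-like nuclei, where the saline male library (92.1 CPM) lay below the saline female library (97.6 CPM), the cocaine libraries were at 159 and 163 CPM. The means of Ankrd55 and Ubash3b in microglia-like nuclei, their highest class, were not higher with cocaine. Ubash3b stood at 502 and 370 CPM with saline and at 382 and 245 CPM with cocaine, and Ankrd55 at 510 and 832 CPM against 501 and 387 CPM.

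The partners of the 7 proteins were described as lists. None of the 12 tested elongation factors related to ELL2, 17 Sin3 and ASAP subunits, 15 receptor-type phosphatases, 13 intraflagellar transport proteins, 10 aryl hydrocarbon receptor and PARP genes, 4 CBL-related genes or 3 desmosome genes passed with cocaine in D1-MSN-like nuclei. Their median log2 fold changes lay between -0.09 and 0.01, against 0.00 over all genes. None of these lists had a gene that passed in D2-MSN-like nuclei either. The activity-regulated list was the exception, with 5 of 31 genes higher in D1-MSN-like nuclei (Nr4a3, Pcsk1, Scg2 and Fosl2 among them) and 3 of 30 in D2-MSN-like nuclei (Nr4a3, Egr4 and Pcsk1). Its medians were 0.49 and 0.45, and this list was known to hold genes raised in these libraries.

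With Nr4a3 status, single partners passed, where 9.59% of all genes (D1-MSN-like) and 9.1% of all genes (D2-MSN-like) passed in the higher direction. A count of 1 in a list of 12 or 17 genes is near or under that share and is no result about the list. Aff4, the scaffold of the super elongation complex that ELL2 joins, was higher in nuclei with an Nr4a3 UMI in D1-MSN-like (log2 difference 0.57, SE 0.10, edgeR adjusted p = 0.00076) and D2-MSN-like nuclei (0.45, SE 0.09, edgeR adjusted p = 0.0023), as 1 of 12 genes of its list. Ptprn, a phosphatase-like protein of secretory vesicles, was higher by 1.75 (SE 0.16) and 1.47 (SE 0.11), with edgeR adjusted p of 9.8e-07 and 5.1e-09, while Ptprr (-0.48), Ptprj (-0.42) and Ptpre (-0.37) were lower in D1-MSN-like nuclei. Pkp4, a relative of PKP2, was higher by 0.52 and 0.69, and Ift57 by 0.51 and 0.48. Sap130 (0.40) was the 1 of 17 Sin3 and ASAP genes that passed, in D1-MSN-like nuclei alone. Parp8 was lower by a log2 difference of 0.75 in D1-MSN-like nuclei. The median of each of these 7 lists lay between -0.24 and 0.22 in both classes, against -0.04 and -0.03 over all genes.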

How the data were processed

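The authors deposited 1 matrix per library of UMI counts per gene and nucleus, whole numbers that are not normalized, made with Cell Ranger 6.1.2 per the file headers. The build is rn7 per the submitters' processing notes, and the annotation is not given in the sources used here. Kept nuclei had 200 genes or more and mitochondrial UMIs of at most 5%. Scrublet (scanpy 1.11.5) ranked doublets, of which 1381 were removed (4.97% to 5.81% of barcodes). Leiden clusters (leidenalg 0.10.2) were built without the 7 genes, the activity-regulated list and sex-linked genes, and named from marker lists. The limits for a name (a score of 1.0 and 3 markers detected) were set after the data were seen. The members and lists were chosen with earlier results of these data known.

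Counts were summed per library and class (at least 25 nuclei in each library), since the library is the replicate. Each edgeR 4.0.16 fit (R 4.3.3, quasi-likelihood, TMM, filterByExpr, Benjamini-Hochberg over all genes, threshold 0.05) had sex and treatment as terms. For Nr4a3 status, the 8 sums of a class were fitted with library as a block and without Nr4a3, and the interaction with treatment gave the difference of the cocaine effect. P-values for cocaine measure how far the treatment difference disagreed between the female and the male pair. Those for Nr4a3 status measure how far the difference within a library varied between libraries. In both, information on the spread was shared across genes. Where all genes shared a trend of dispersion (an infinite prior), the spread of a gene itself between pools did not enter. The fits were also run on simulated counts with the same dispersion for every gene and no difference between the sexes. These pools differ from that setting, so nothing is read from that run. Named genes were the 7, Nr4a3, up to 4 passing genes per list, the 3 most similar genes (Pearson r of log2(CPM + 1), mean of at least 5 CPM) and 5 genes for Nr4a3 status. Alternatives were DESeq2 1.42.0, no filter on low counts, no sex term, a marker gate, no doublet removal, thinning, other definitions of status and left-out libraries.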

Additional observations from a re-analysis of the deposited data

Results flagged for a closer look

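In D2-MSN-like nuclei Ubash3b and Ankrd55 moved in opposite directions in the sexes. The log2 ratio of cocaine to saline was -0.477 in the female and 0.0641 in the male pair for Ubash3b, and 0.185 in the female and -0.0564 in the male pair for Ankrd55. Each rests on 1 library per treatment, and the difference between the sexes was not tested.

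The log2 difference between nuclei with and without an Nr4a3 UMI was larger in the cocaine than in the saline libraries. In D1-MSN-like nuclei it was larger by 2.02 for Ptpro, 1.95 for Ell2, 1.72 for Pkp2 and 1.49 for Tiparp, and in D2-MSN-like nuclei by 2.28 for Pkp2, 1.81 for Ell2 and 1.15 for Ptpro (the interaction of treatment and status in edgeR). The genes were chosen on the cocaine contrast that these values share. Nuclei with an Nr4a3 UMI also held more Nr4a3 UMIs on average with cocaine than with saline, and they were not matched for this number.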

How the results depend on the processing

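Counts of all genes that passed with cocaine moved with most settings. In D1-MSN-like nuclei 25 genes passed, against 8 with DESeq2, 170 without a filter on low counts, 130 in cluster 2 and 3 in cluster 5, and 0 to 43 without 1 library. In D2-MSN-like nuclei 9 passed, against 1 with DESeq2, 125 without the filter, 102 with doublets kept, 329 with the marker gate, 66 in cluster 1 and 16 to 160 without 1 library. Fits without 1 library had no sex term. In classes that are not spiny, 1 of the 47 tests passed, against 0 with DESeq2, 2 with doublets kept and 0 to 3 without 1 library. Sex pairs the libraries by label only. No replicate block (no sex term) gave 0 genes in D1-MSN-like nuclei, 1 in D2-MSN-like nuclei and 0 of the 47 tests.

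Of the 7 genes, 5 passed for Nr4a3 status, against 4 to 5 (D1-MSN-like) and 5 (D2-MSN-like) without 1 library, and 3 in D2-MSN-like nuclei with the saline libraries alone and in cluster 12. For the interaction, 4 passed in D1-MSN-like nuclei, against 2 when thinned, 2 by activity-gene UMIs, 1 in cluster 5 and 2 to 4 without 1 library. In D2-MSN-like nuclei 3 passed, against 1 with DESeq2, 1 when thinned, 1 in cluster 12 and 2 to 3 without 1 library.

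Sap18 for Nr4a3 status lay near 0 and changed sign. In D1-MSN-like nuclei it was -0.017 without the filter, -0.11 in the saline libraries, -0.035 with 2 or more Nr4a3 UMIs, -0.045 by activity-gene UMIs, -0.0013 in cluster 2 and -0.042 to 0.084 without 1 library. In D2-MSN-like nuclei it was -0.053 without the filter, -0.034 in the cocaine libraries, -0.014 by activity-gene UMIs, -0.063 in cluster 1 and -0.044 to 0.062 without 1 library. Ankrd55 for status was 0.024 in cluster 5. The interaction for Sap18 was -0.077 in D1-MSN-like nuclei by activity-gene UMIs and -0.24 to 0.011 in D2-MSN-like nuclei without 1 library, and that for Tiparp was -0.012 in cluster 5. For Ankrd55 it was 0.54 in thinned D1-MSN-like nuclei, 0.0043 (D1-MSN-like) and 0.42 (D2-MSN-like) by activity-gene UMIs, and -0.63 to 0.17 in D1-MSN-like nuclei without 1 library. Unthinned, the share of nuclei with a UMI differed between cocaine and saline by -3.27 points for Ell2 in D1-MSN-like nuclei, and in D2-MSN-like nuclei by -0.58 points for Ell2, -0.51 points for Pkp2 and -0.23 points for Ankrd55. The cause of these changes was not tested.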
